A study of Mus musculus with 21 samples.

Results

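Gene expression in wild-type mouse macrophages kept with interleukin-33 (IL-33) was compared directly with that in macrophages kept with interleukin-4 (IL-4). The comparison rests on 6 of the 21 RNA sequencing libraries of the series, chosen by their labelled genotype and cytokine: 3 from wild-type cells given IL-33 and 3 from wild-type cells given IL-4. It covers the 14473 of 47069 genes in the deposited table that passed a filter on low counts, each of which is treated as a member. The cells were bone marrow-derived macrophages, which are precursors from the marrow of C57BL/6 mice grown for 5 days in medium conditioned with the growth factor M-CSF, and the cytokine was present for 36 h. The labels give no cytokine dose and no age of the mice, and do not say whether the 3 libraries of a group came from separate animals or cultures, so p-values speak only to the scatter of these libraries, part of which may be technical. Wild-type cells without added cytokine (3 libraries) are given beside the 2 groups as a reference level. The other 12 libraries came from cells labelled ST2-/- or Cx3cr1CRExGata3fl/fl with and without IL-33. They entered only the filter on low counts, the scaling between libraries and the shared estimate of the spread.

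IL-33 is an alarmin of the IL-1 family. It binds the receptor chain ST2 (encoded by Il1rl1) paired with the IL-1 receptor accessory protein, and signals through MyD88 and IRAK kinases to NF-kB and AP-1. IL-4 binds the IL-4 receptor alpha chain (Il4ra), paired with either the common gamma chain (Il2rg) or the IL-13 receptor chain Il13ra1, and signals through JAK kinases to the transcription factor STAT6. In macrophages IL-4 is known as the standard inducer of alternative activation, with arginase 1, resistin-like alpha and chitinase-like proteins as its classic markers. IL-33 is known to amplify type 2 immunity, and NF-kB is also the classic route to inflammatory cytokines in these cells.

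Depth was 36.6 to 41.7 M counts per library (M, mega) under IL-33, 32.6 to 46.4 M under IL-4 and 36.0 to 39.3 M without cytokine. On the first principal component of the 9 wild-type libraries (46.9% of the variance) the IL-4 libraries stood apart from both other groups, and on the second (27.1%) the IL-33 libraries stood apart from the unstimulated ones. The labelled cell type was checked against 12 macrophage markers, none of which was at 0 in either cytokine group. Their summed level was 38598 to 42637 CPM (counts scaled to the same library size) under IL-33, 15263 to 16775 CPM under IL-4 and 29061 to 31961 CPM without cytokine. Most of this sum was lysozyme 2 (Lyz2), at 29655 ± 1601 CPM under IL-33 and 9890.2 ± 851 CPM under IL-4 (SD, n = 3 each). The lineage transcription factor gene Spi1 stood at 511 ± 8.66 and 522 ± 14.5 CPM, a difference that was not called (edgeR adjusted p = 0.6). It was the 1 marker of the 12 without a call: 9 were called higher under IL-33, 7 of them by at least 2-fold, and 2 higher under IL-4 (median difference 1.31, in log2). In RNA from whole cultures, fewer cells of a type and less RNA per cell cannot be told apart, and this holds for every level given here.

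A difference is given as log2 of the level under IL-33 minus log2 of the level under IL-4, ± its standard error (n = 3 against 3). Calls were made with edgeR's quasi-likelihood test where the adjusted p was under 0.05. Of 14473 genes tested, 5772 were called (39.9%), of which 2772 (19.2%) were higher under IL-33 and 3000 (20.7%) higher under IL-4. Differences of at least 2-fold were called for 777 genes (5.37%) higher under IL-33 and 628 (4.34%) higher under IL-4, and differences of at least 4-fold for 305 (2.11%) and 279 (1.93%). By contrast 3359 called genes (23.2% of those tested) differed by less than 1.5-fold. The 3 libraries of one cytokine lay wholly above the 3 of the other for 7087 genes (49.0%), and the median difference over all genes was -0.01. In the scatter of mean levels, the points farthest from the diagonal lie on both sides of it.

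**Figure D1:**
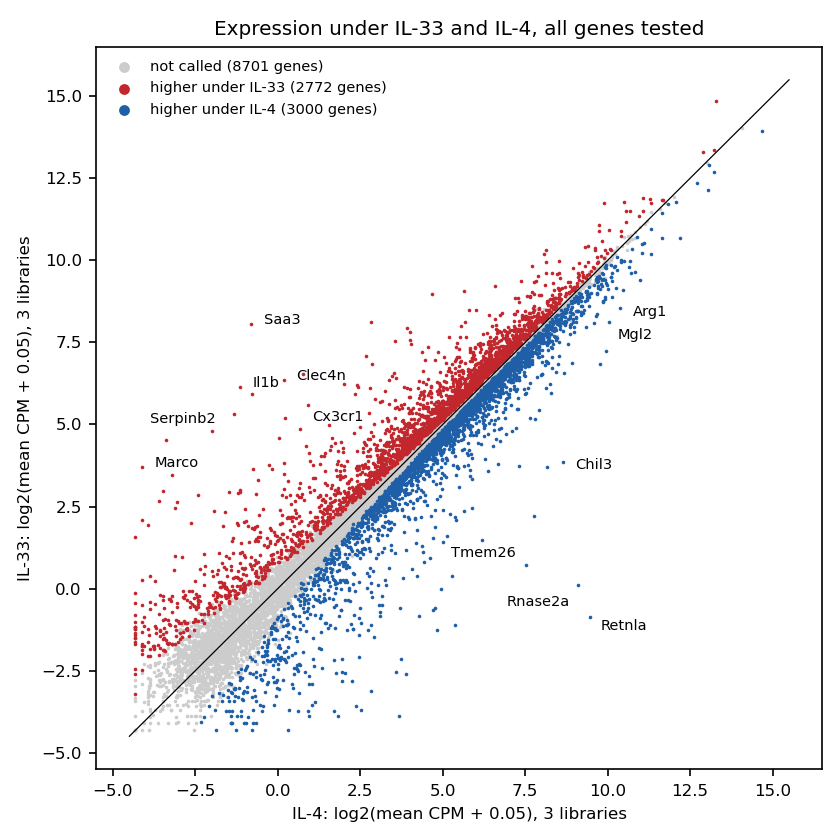
Mean level of each of the 14473 genes over the 3 IL-4 libraries (horizontal axis) and the 3 IL-33 libraries (vertical axis), each as log2 of mean CPM plus 0.05; red and blue points are genes called higher under IL-33 (2772) and under IL-4 (3000), grey points were not called, and the line marks equal levels. Saa3, Serpinb2 and Marco lie far above the line, and Retnla, Rnase2a and Chil3 far below it.

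Called differences were ranked among genes with a mean log2 CPM of at least 2 and no overlap between the IL-33 and IL-4 libraries. Genes below that level were left out of the ranking. The 12 largest on the IL-33 side were led by Saa3 (chromosome 7, 46711998 to 46715700), which encodes an acute-phase serum amyloid A protein made by macrophages. Saa3 stood at 126, 257 and 414 CPM under IL-33 and 0.0948, 0.677 and 0.799 CPM under IL-4. No IL-4 library came near the lowest IL-33 library, yet the IL-33 libraries themselves spanned more than 3-fold, and the difference was 8.87 ± 0.82 (adjusted p = 7.8e-09). Serpinb2 (chromosome 1, 107511423 to 107535478), the intracellular inhibitor of plasminogen activators, held 2621 counts over the 3 IL-33 libraries and 6 over the 3 IL-4 libraries (ratio 452). The 95% interval of that ratio for counting error, from an exact binomial interval, was 207 to 1233. The fitted difference of Serpinb2 was 8.74 ± 0.38, or 9.57 without IL-4 replicate 3. Il1b (chromosome 2, 129364570 to 129371139), which encodes the inflammatory cytokine IL-1 beta, stood at 69.5, 65.8 and 75.6 CPM under IL-33 and 0.348, 0.677 and 0.178 CPM under IL-4. Its 3 IL-33 libraries lay close together and its difference was 7.45 ± 0.51 (adjusted p = 6.2e-11), or 8.14 without IL-4 replicate 2. The rest of this set comprised Hp and Cp (the plasma proteins haptoglobin and ceruloplasmin), the membrane-bound matrix protease gene Mmp14, the lectin receptor gene Clec4n, the signalling inhibitor gene Socs3, Nxpe5, the TNF-family ligand gene Tnfsf14, the surface antigen gene Ly6a and the chemokine gene Cxcl2. Ly6a stood at 65.5, 45.9 and 34.6 CPM under IL-33 and 3.19, 1.35 and 0.999 CPM under IL-4. Its unstimulated libraries, at 39.0, 20.3 and 24.3 CPM, overlapped those with IL-33 and lay above all with IL-4. Over the 12 genes the fold ran from 24.7 to 468 and the largest adjusted p was 4.3e-08. In 10 of the 12, replicate 3 was the highest of the IL-33 libraries. This order was not general. Of all 10120 genes at that mean level, 58 spread at least 2-fold between the IL-33 libraries. Replicate 1 was highest in 35 of them, replicate 2 in 7 and replicate 3 in 16.

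On the IL-4 side the largest difference in this ranking was that of Retnla (chromosome 16, 48842551 to 48844461), the gene of resistin-like alpha. Retnla stood at 0.952, 0.442 and 0.0844 CPM under IL-33 and 739, 658 and 742 CPM under IL-4, a difference of -10.47 ± 0.25 (adjusted p = 2.3e-18). Replicate 1 was the highest of the IL-33 libraries, and all of them were below 1 CPM. Without that library the difference was -11.32. Rnase2a (chromosome 14, 51255262 to 51256112), a ribonuclease gene of the eosinophil-associated family, stood at 1.82, 0.835 and 0.394 CPM under IL-33 and 579, 504 and 562 CPM under IL-4, and Tmem26 (chromosome 10, 68723646 to 68782650), a transmembrane protein gene, at 1.53, 1.55 and 1.69 CPM under IL-33 and 183, 184 and 182 CPM under IL-4. The differences were -9.06 ± 0.22 and -6.85 ± 0.11, with all 3 IL-4 libraries of each gene far above the IL-33 libraries, and that of Rnase2a was -9.76 without IL-33 replicate 1. The others were the tight-junction gene Cldn11, the homeobox gene Msx3, the cell fusion gene Ocstamp, the translation factor gene Eef1a2, Wwc1, the actin-binding gene Ablim1, the antisense RNA gene Gm42835, the chitinase-like gene Chil3 and the ribonuclease gene Ear2. Folds in this set ran from 26.9 to 1419. Whether the counting used strand is not given in the sources used here, so reads of Gm42835 and of the gene on its opposite strand cannot be told apart.

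**Figure D2:**
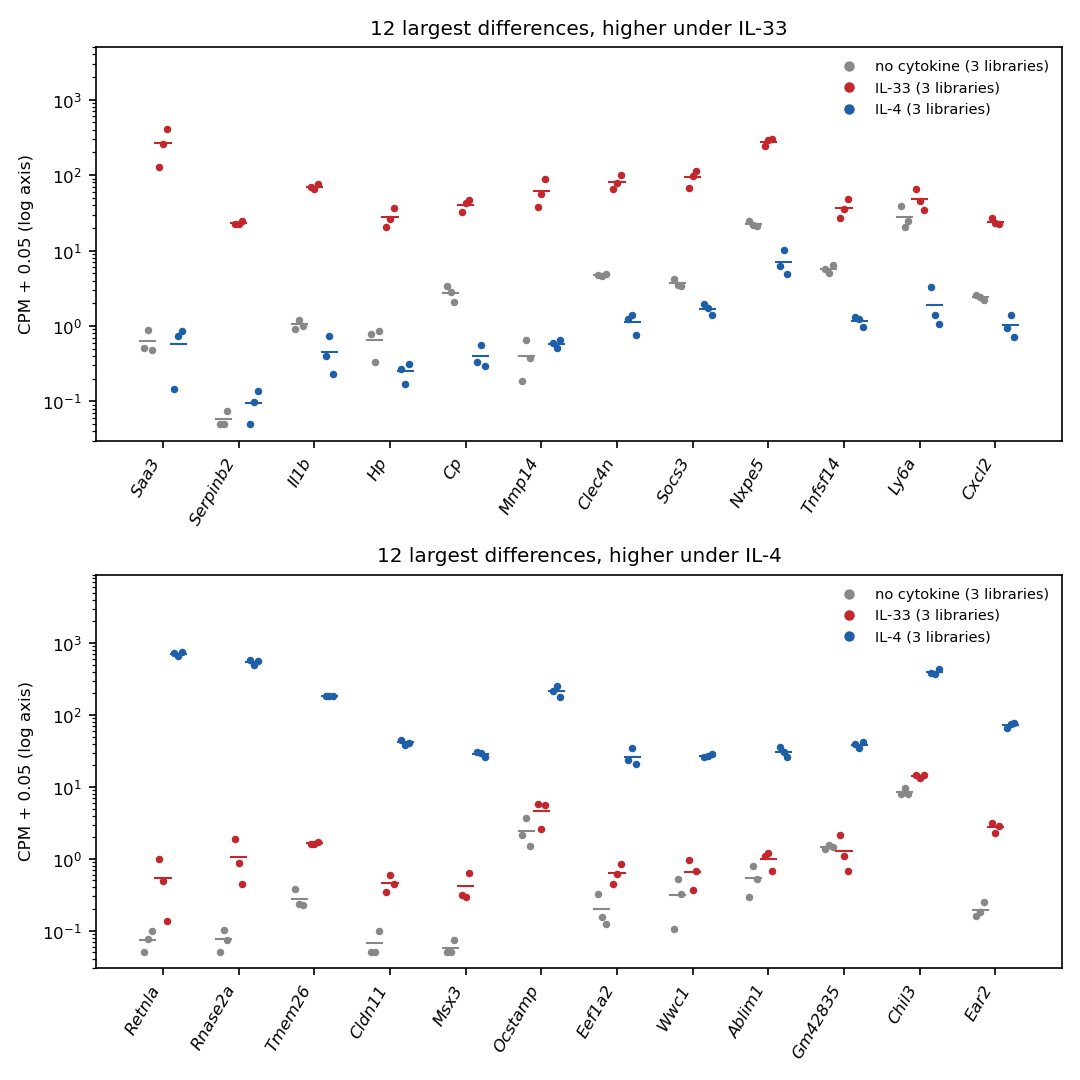
CPM (plus 0.05, log axis) of the 12 genes with the largest called differences in each direction, among genes with a mean log2 CPM of at least 2. Points are the 3 unstimulated (grey), 3 IL-33 (red) and 3 IL-4 (blue) libraries, and the short line is the mean of the 3. Genes whose red and blue points overlap were left out by the rule of selection. The IL-33 libraries of Saa3 run from 126 to 414 CPM.

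The receptor and signalling genes of the type 2 cytokines were read first among 48 gene lists. Counts in each list stand against 19.2% of all genes called higher under IL-33 and 20.7% called higher under IL-4. Of 19 members of the IL-4 and STAT6 pathway list, 17 were tested, of which 10 were called higher under IL-33 and 5 higher under IL-4 (median difference 0.33). Il4ra (chromosome 7, 125552120 to 125579474), the binding chain shared by the receptors of IL-4 and IL-13, stood at 289, 371 and 419.7 CPM under IL-33 and 55.4, 61.5 and 51.0 CPM under IL-4, with 81.7, 79.6 and 78.3 CPM without cytokine. All IL-33 libraries lay above all others and all IL-4 libraries below them, and the difference was 2.69 ± 0.11 (adjusted p = 1.8e-14), or 6.43-fold. Il13ra1 (chromosome X, 36112110 to 36171259), its partner in the second receptor type, was placed in the same way, at 46.7, 48.3 and 51.5 CPM under IL-33 and 10.1, 11.3 and 9.32 CPM under IL-4, a difference of 2.25 ± 0.10. Jak3, the kinase bound to the common gamma chain, was 3.13-fold higher under IL-33 (1.65 ± 0.15), and Stat3, the factor used by the IL-6 and IL-10 receptors, 1.79-fold higher (0.84 ± 0.06). Stat6 itself stood at 277, 257 and 269 CPM under IL-33 and 267, 258 and 263 CPM under IL-4, values that overlapped, and was not called (0.03 ± 0.05, adjusted p = 0.69). On the IL-4 side, the insulin receptor substrate gene Irs2, an adaptor that also binds the IL-4 receptor, was 2.78-fold higher (-1.47 ± 0.11). The ligand gene Il13 held 107, 113 and 109 counts in the 3 IL-33 libraries and 0 in every IL-4 and every unstimulated library, which makes it at least 37.1-fold higher under IL-33 against a floor of 3 counts per IL-4 library. Its companion gene Il4 held 314 counts over the IL-33 libraries and 122 over the IL-4 libraries (1.38 ± 0.23, adjusted p = 3.3e-05).

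Among the receptor and adaptor genes of IL-33 itself, 17 of 18 were tested, 7 were called higher under IL-33 and 6 higher under IL-4. Il1rl1 (chromosome 1, 40429570 to 40465415), which encodes ST2, stood at 15.8, 16.9 and 14.6 CPM under IL-33 and 58.9, 67.8 and 50.7 CPM under IL-4. The unstimulated libraries, at 14.6, 17.3 and 15.1 CPM, overlapped those with IL-33, while all 3 IL-4 libraries were higher, and the difference was -1.91 ± 0.14 (adjusted p = 1.4e-10). Its co-receptor gene Il1rap stood at 11.1 ± 0.915 CPM under IL-33 and 14.004 ± 0.816 CPM under IL-4 (-0.33 ± 0.10), a call lost without IL-33 replicate 2 (adjusted p = 0.084) or IL-4 replicate 1 (0.061). Downstream, the adaptor gene Myd88 was 2.27-fold higher under IL-33 (1.18 ± 0.05) and Irak3, whose product restrains the same pathway, 2.88-fold higher (1.52 ± 0.07). Sigirr, an inhibitory receptor of the family, was 1.78-fold higher under IL-4 (-0.83 ± 0.19). The gene of the cytokine, Il33, failed the filter and had a sum of 46 counts under IL-4 against 4 under IL-33 (3 libraries each).

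The SOCS genes encode feedback inhibitors of JAK and STAT signalling, and they divided between the cytokines. Socs1 (chromosome 16, 10782240 to 10785536) stood at 10.1, 9.61 and 10.3 CPM under IL-33 and 64.7, 57.9 and 56.3 CPM under IL-4, and at 1.61, 1.43 and 1.20 CPM without cytokine. The IL-33 libraries lay between the unstimulated and the IL-4 libraries with no overlap, and the difference was -2.58 ± 0.17 (adjusted p = 3.3e-11). Cish (chromosome 9, 107296026 to 107302784) had the same order, at 7.14, 5.82 and 6.14 CPM under IL-33 and 19.0, 25.3 and 19.998 CPM under IL-4, a difference of -1.75 ± 0.19. Socs2 stood at 16.0, 10.9 and 15.1 CPM under IL-33 and 17.5, 20.1 and 17.9 CPM under IL-4, against 0.437, 0.623 and 0.276 CPM without cytokine. The cytokine groups did not overlap, but the difference of -0.41 ± 0.20 was not called (edgeR adjusted p = 0.12), while limma-voom called it (adjusted p = 0.0052), as did edgeR on the 9 wild-type libraries (0.047), on the 6 libraries compared (0.035) or with no filter (0.019). Socs3 (chromosome 11, 117966079 to 117970047), the inhibitor of the IL-6 receptor pathway, went the other way, at 67.5, 97.7 and 114 CPM under IL-33 and 1.93, 1.69 and 1.33 CPM under IL-4. The difference of 5.83 ± 0.41 (adjusted p = 8.7e-11) was the largest of the 13 genes of this list, of which 3 were called higher under IL-33 and 5 higher under IL-4.

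**Figure D3:**
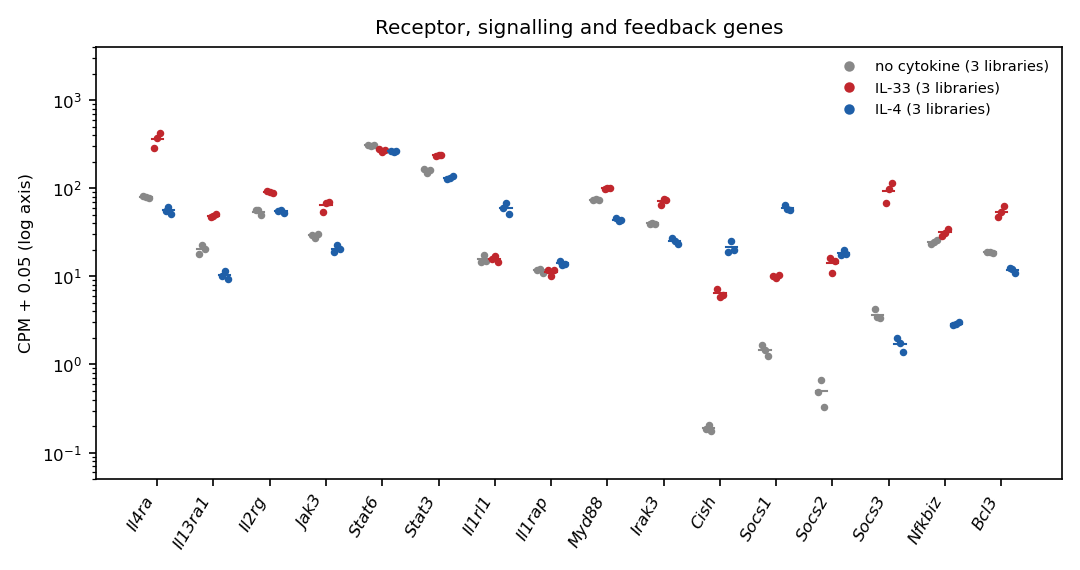
CPM (plus 0.05, log axis) of 16 receptor, adaptor and feedback genes in the 3 unstimulated (grey), 3 IL-33 (red) and 3 IL-4 (blue) libraries, with the mean as a short line. Il4ra, Il13ra1 and Jak3 are highest under IL-33, Il1rl1, Cish and Socs1 highest under IL-4, and Socs3 is high only in the red points, at 67.5 to 114 CPM.

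NF-kB proteins bind DNA as dimers, are held back by inhibitory IkB proteins and induce several of their own inhibitors. All 18 members of this list were tested, with 12 called higher under IL-33 and 2 higher under IL-4 (median 0.45). Nfkbiz (chromosome 16, 55811375 to 55838899), the nuclear IkB protein needed for a second wave of inflammatory genes, stood at 28.9, 31.3 and 34.4 CPM under IL-33 and 2.75, 2.83 and 2.996 CPM under IL-4. Its unstimulated libraries, at 23.4, 24.8 and 25.8 CPM, sat just under the IL-33 ones and well above the IL-4 ones, and the difference was 3.46 ± 0.10 (adjusted p = 1e-16). Bcl3, another nuclear IkB protein, was 4.58-fold higher under IL-33 (2.20 ± 0.17), the ubiquitin ligase gene Birc3 2.62-fold (1.39 ± 0.09) and the kinase gene Ikbke 2.08-fold (1.06 ± 0.06). The main subunit gene Rela differed by 0.21 ± 0.05 (adjusted p = 0.0011), and Nfkb1 was not called (-0.09 ± 0.05, adjusted p = 0.21). Of the 13 AP-1 genes, 53.8% were called against 39.9% of all genes, 2 higher under IL-33 and 5 higher under IL-4, led by Batf3 (-1.72 ± 0.15), a factor of dendritic cell development, and Atf3 (-1.15 ± 0.06), a stress-induced repressor.

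Transcription factors of macrophage programmes were mostly higher under IL-4, with 13 of 25 called in that direction and 7 in the other (median -0.30). Pparg (chromosome 6, 115360951 to 115490399), the lipid-sensing nuclear receptor of alternatively activated macrophages, stood at 31.4, 27.8 and 23.4 CPM under IL-33 and 143, 123 and 149.8 CPM under IL-4. The unstimulated libraries held 58.5, 64.1 and 59.5 CPM, between the other groups, and the difference was -2.33 ± 0.09 (adjusted p = 9e-15). Bhlhe40, a repressor that permits macrophage proliferation, was 4.95-fold higher under IL-4 (-2.31 ± 0.09), Irf4, a partner of STAT6 in this programme, 4.67-fold (-2.22 ± 0.09) and Egr2 2.82-fold (-1.50 ± 0.14). Maf (chromosome 8, 115682942 to 115707794), a factor tied to quiescence and Il10 expression, was the reverse, at 581, 607 and 611 CPM under IL-33 and 96.7, 105 and 84.1 CPM under IL-4. Its unstimulated level of 609, 554 and 547 CPM overlapped the IL-33 libraries, and the difference was 2.66 ± 0.08 (adjusted p = 1.2e-16).

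Markers of alternative activation were mostly higher under IL-4: of 21 tested, 16 were called in that direction and 3 higher under IL-33 (median -1.61). Arg1 (chromosome 10, 24915221 to 24927484), which converts arginine to ornithine and urea, stood at 319.9, 362 and 439 CPM under IL-33 and 1357, 1548 and 1092 CPM under IL-4, against 0.273, 0.519 and 0.351 CPM without cytokine. Both cytokine groups lay far above the unstimulated cells, and the IL-4 libraries lay above the IL-33 ones without overlap (-1.83 ± 0.16, adjusted p = 3.2e-09). The galactose-type lectin gene Mgl2 had the same order, at 319.7, 271 and 247 CPM under IL-33 and 1124, 1115 and 922 CPM under IL-4, with 8.91, 10.6 and 8.52 CPM without cytokine (-1.92 ± 0.11). Ccl22, which encodes an attractant of T helper 2 and regulatory T cells, was 12.2-fold higher under IL-4 (-3.61 ± 0.21), and Pdcd1lg2, the checkpoint ligand PD-L2, 6.22-fold (-2.64 ± 0.27). The exceptions were the mannose receptor gene Mrc1 (1.68-fold higher under IL-33, 0.75 ± 0.12), the lectin gene Clec10a (1.52-fold) and F13a1, the clotting factor XIII A chain. F13a1 (chromosome 13, 36867178 to 37050244) stood at 341, 561 and 622 CPM under IL-33 and 20.7, 33.8 and 21.8 CPM under IL-4, with 41.5, 57.9 and 42.9 CPM without cytokine, so the IL-4 libraries lay below all unstimulated ones (4.32 ± 0.27, adjusted p = 1.6e-11).

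The chitinase-like, resistin-like and RNase A family genes, secreted proteins of type 2 inflammation, held 8 members of 11 tested that edgeR called higher under IL-4 and 0 called higher under IL-33 (17 on the list). Retnlg, another resistin-like gene, differed by 2.21 ± 0.93 and was called toward IL-33 by DESeq2 (adjusted p = 0.035), with no filter on low counts (0.028) and without IL-33 replicate 1 (0.035). Chil3 (chromosome 3, 106147554 to 106167564) stood at 14.7, 13.4 and 14.8 CPM under IL-33 and 383, 375 and 436 CPM under IL-4, against 7.87, 9.50 and 7.84 CPM without cytokine, a difference of -4.80 ± 0.12 (adjusted p = 2.5e-18). Its neighbour Chil4 had 1522 counts under IL-4 and 2 under IL-33 (sums of 3 libraries), a ratio of 735 (counting interval 203 to 6078). Set beside these, Arg1 was 3.57-fold and Mgl2 3.77-fold higher under IL-4, while Rnase2a was 534-fold and Retnla 1419-fold higher.

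The sequences shown lie before the start sites of Retnla and Tmem26, which were chosen by both rank and letters. Both genes were among the 3 largest ranked differences toward IL-4, and both hold the letters of the preferred STAT6 element. That element is TTC and GAA with 4 free bases between them. The sequences were read from the RefSeq promoter table (GRCm38.p6), which begins 250 bases before the RefSeq start, and end where the gene begins in GENCODE. They run 5′ to 3′ on the plus strand, with the match in capitals. The Retnla stretch is chr16:48842359-48842550, with a match that begins 145 bases before the RefSeq start. The Tmem26 stretch is chr10:68723496-68723645, with a match at 227 bases, and a further match at 41 bases lies past its end. Of the 12 largest differences toward IL-4, 10 genes were in the promoter table and 3 held these letters (Retnla, Tmem26 and 1 of the promoters of Ablim1). Rnase2a, the second largest in that ranking, had no match, which says only that these letters are not in its window.
Retnla: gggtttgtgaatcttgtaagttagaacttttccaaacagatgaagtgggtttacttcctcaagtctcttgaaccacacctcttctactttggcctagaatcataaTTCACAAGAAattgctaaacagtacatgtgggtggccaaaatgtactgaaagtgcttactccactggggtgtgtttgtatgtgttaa
Tmem26: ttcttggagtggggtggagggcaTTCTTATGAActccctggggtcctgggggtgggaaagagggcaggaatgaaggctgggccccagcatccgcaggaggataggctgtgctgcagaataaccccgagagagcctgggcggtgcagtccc

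Arginine and polyamine metabolism was divided by enzyme. Of 18 members tested, 5 were called higher under IL-33 and 11 higher under IL-4 (median -0.22). The cationic amino acid carrier gene Slc7a2, which brings arginine into the cell, stood at 43.3, 35.3 and 51.5 CPM under IL-33 and 217, 282 and 225 CPM under IL-4, with 2.43, 2.72 and 2.91 CPM without cytokine (-2.48 ± 0.13, adjusted p = 7e-13). The mitochondrial arginase gene Arg2 (chromosome 12, 79130777 to 79156301) was the reverse of Arg1, at 3.09, 2.97 and 5.26 CPM under IL-33 and 0.284, 0.411 and 0.466 CPM under IL-4. The unstimulated libraries, at 0.273, 0.285 and 0.476 CPM, overlapped those with IL-4, and the difference was 3.25 ± 0.47 (adjusted p = 6.2e-06). Nos2, the inducible nitric oxide synthase that competes for arginine, held only 89 counts over the 3 IL-33 libraries and 10 over the 3 IL-4 libraries, a ratio of 9.21 (counting interval 4.78 to 19.9). Spermine synthase (Sms), which makes the longest of the common polyamines, was 2.11-fold higher under IL-4 (-1.07 ± 0.07), and spermine oxidase (Smox) 2.02-fold higher under IL-33 (1.01 ± 0.05).

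Inflammatory and myeloid cytokine genes were called in 1 direction only: 16 of 19 tested were higher under IL-33 and 0 higher under IL-4 (median 1.44, 22 on the list). Il1a, the partner of Il1b, stood at 8.17, 5.90 and 7.26 CPM under IL-33 and 0.0316, 0.266 and 0.111 CPM under IL-4, a difference of 5.61 ± 0.69, or 6.48 without IL-4 replicate 2. Tnf, at 25.8, 19.997 and 20.4 CPM under IL-33 and 6.23, 6.94 and 4.95 CPM under IL-4, differed by 1.87 ± 0.19 (adjusted p = 4.5e-08). Il10, the gene of an anti-inflammatory cytokine, stood at 3.91, 4.15 and 3.83 CPM under IL-33 and 0.664, 0.266 and 0.1998 CPM under IL-4. Its unstimulated libraries held 3.14, 2.75 and 3.21 CPM, below the IL-33 libraries and above the IL-4 libraries, and the difference was 3.47 ± 0.33 (adjusted p = 1.1e-08), or 4.09 without IL-4 replicate 1. Tnfsf14, the ligand LIGHT, was 33.1-fold higher under IL-33 (5.05 ± 0.21). The low genes Il6 and Csf3 had 59 and 97 counts over the IL-33 libraries and 0 under IL-4. Against a floor of 3 counts per library they were at least 6.64-fold and 10.9-fold higher, and the call of Csf3 was lost in DESeq2 (adjusted p = 0.073). The IL-1 receptor antagonist gene Il1rn, at 119, 104 and 108 CPM under IL-33 and 89.6, 107 and 65.5 CPM under IL-4, overlapped between the groups and was not called (0.34 ± 0.17, edgeR adjusted p = 0.12). It was called without IL-4 replicate 2 (0.53, adjusted p = 0.024) and with no filter on low counts (adjusted p = 1.6e-06). The summed neutrophil markers were also higher under IL-33, as given at the end, and their part in the levels of these cytokines and of the chemokines was not tested.

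Most chemokine genes were higher under IL-33. Among CXC and CX3C chemokines, 8 of 11 tested were called higher under IL-33 and 2 higher under IL-4 (median 2.46, 14 on the list), the highest median of any list. The neutrophil attractants Cxcl1, Cxcl2 and Cxcl3 lie in 1 cluster on chromosome 5. Cxcl2 (chromosome 5, 90903871 to 90905938) stood at 26.8, 22.8 and 22.2 CPM under IL-33 and 0.885, 1.35 and 0.666 CPM under IL-4, a difference of 4.63 ± 0.22 (adjusted p = 8.5e-14). Cxcl1 held 724 counts over the IL-33 libraries and 4 over the IL-4 libraries (ratio 187, counting interval 72.8 to 689), and Cxcl3 held 887 against 5 (ratio 184, 78.4 to 567), with every IL-4 count of both genes in replicate 2. Pf4, the platelet factor gene of the same cluster that macrophages also express, stood at 160.0, 187 and 209 CPM under IL-33 and 10.9, 13.4 and 11.03 CPM under IL-4 (3.98 ± 0.19). Cxcl10, an attractant of activated T cells, stood at 14.1, 10.9 and 12.8 CPM under IL-33 and 0.411, 0.242 and 0.977 CPM under IL-4, with 7.49, 7.08 and 7.91 CPM without cytokine (4.48 ± 0.42, or 5.31 without IL-4 replicate 3). Among CC chemokines, 7 of 13 tested were called higher under IL-33 and 2 higher under IL-4 (median 0.44, 16 on the list). The monocyte attractants Ccl8 and Ccl12 led on the IL-33 side (3.61 ± 0.22 and 3.52 ± 0.31), and Ccl22 and the eosinophil attractant Ccl24 (-1.61 ± 0.30) on the IL-4 side.

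The upstream sequences of the 3 cluster chemokines are shown because these neighbours were called in the same direction and each holds the letters of an NF-kB element, GGG and TTCC with 3 free bases between them, including an overlapping pair read on opposite strands. They are RefSeq sequence (GRCm38.p6, plus strand, 5′ to 3′) from 250 bases before the RefSeq start to the first base of the gene in GENCODE or RefSeq, whichever is earlier, with matches in capitals. Cxcl1 is chr5:90890995-90891240, Cxcl2 is chr5:90903649-90903870 and Cxcl3 is chr5:90785851-90786100, and each has 3 matches.
Cxcl1: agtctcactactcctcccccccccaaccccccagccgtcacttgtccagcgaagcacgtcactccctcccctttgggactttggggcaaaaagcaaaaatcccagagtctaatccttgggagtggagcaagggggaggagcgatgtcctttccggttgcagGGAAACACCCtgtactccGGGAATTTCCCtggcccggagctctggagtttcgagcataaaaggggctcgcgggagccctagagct
Cxcl2: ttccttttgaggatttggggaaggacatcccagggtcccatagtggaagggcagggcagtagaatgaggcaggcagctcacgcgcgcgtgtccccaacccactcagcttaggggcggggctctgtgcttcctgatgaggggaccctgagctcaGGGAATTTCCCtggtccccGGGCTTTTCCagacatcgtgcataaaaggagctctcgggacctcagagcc
Cxcl3: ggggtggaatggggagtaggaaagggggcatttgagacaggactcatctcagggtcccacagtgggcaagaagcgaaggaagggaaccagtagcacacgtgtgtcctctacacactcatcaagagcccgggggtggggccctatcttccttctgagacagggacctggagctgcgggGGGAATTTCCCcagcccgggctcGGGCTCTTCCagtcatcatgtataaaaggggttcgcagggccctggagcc
The matches begin 89, 71 and 70 bases before the start in Cxcl1, 97, 96 and 78 in Cxcl2, and 73, 72 and 50 in Cxcl3. Of the 12 largest ranked differences toward IL-33, 9 genes were in the promoter table and only 1 (Cxcl2) held these letters.

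Receptors for attractants were higher under IL-33 for 12 of 15 tested and higher under IL-4 for 1 (Cxcr4), with a median of 1.64. The difference of Cxcr4 was -0.20 ± 0.07, and its call was lost without IL-4 replicate 1 or 3 or any 1 of the IL-33 replicates (adjusted p = 0.064 to 0.21). Cx3cr1 (chromosome 9, 119901616 to 120069879), the fractalkine receptor, stood at 27.3, 26.7 and 32.5 CPM under IL-33 and 2.12, 1.28 and 1.221 CPM under IL-4, and at 50.04, 50.02 and 53.1 CPM without cytokine. Both cytokine groups lay below the unstimulated cells and the IL-4 libraries lay lowest, and the difference was 4.27 ± 0.16 (adjusted p = 3e-15). The formyl peptide receptor genes Fpr1 and Fpr2, which sense bacterial peptides, had 614 and 476 counts over the IL-33 libraries and 8 and 1 over the IL-4 libraries (ratios 79.4, counting interval 40.1 to 185, and 493, 88.0 to 19496). Without IL-4 replicate 2, which held the 1 count of Fpr2, that gene was at 0 under IL-4. The monocyte receptor gene Ccr2 was 3.10-fold higher under IL-33 (1.63 ± 0.06) and the complement C5a receptor gene C5ar1 3.19-fold (1.67 ± 0.05).

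C-type lectins, receptors for sugars and lipids of microbes and host, were divided, with 12 of 20 tested higher under IL-33 and 4 higher under IL-4 (median 0.60). The neighbouring pattern receptor genes Clec4n (Dectin-2), Clec4e (Mincle) and Clec4d were all called toward IL-33. Clec4n (chromosome 6, 123229843 to 123247021) stood at 64.8, 78.9 and 102 CPM under IL-33 and 1.20, 1.35 and 0.710 CPM under IL-4, with 4.65, 4.49 and 4.86 CPM without cytokine (6.25 ± 0.19, adjusted p = 1e-16). The IL-4 libraries thus lay below, and the IL-33 libraries above, the unstimulated ones, and the same order held for Clec4e (4.42 ± 0.18) and Clec4d (2.47 ± 0.07). The beta-glucan receptor gene Clec7a (Dectin-1) was 2.81-fold higher under IL-4 (-1.49 ± 0.09).

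Toll-like receptors, which sense microbial products, and their co-receptors were called higher under IL-33 for 12 of 15 tested and higher under IL-4 for 0 (median 0.59). Among receptors for antibody (Fc receptors) and their signalling chain, 8 of 9 tested were called higher under IL-33 and 0 higher under IL-4 (median 0.44). Tlr2, the receptor for bacterial lipoproteins, stood at 159, 144 and 139 CPM under IL-33 and 29.5, 30.5 and 26.9 CPM under IL-4, against 107, 119.6 and 125 CPM without cytokine (2.35 ± 0.10). Fcgr1 (chromosome 3, 96282909 to 96293969), the high-affinity IgG receptor, stood at 533, 563 and 511 CPM under IL-33 and 57.1, 38.3 and 54.7 CPM under IL-4, with 266, 234 and 245 CPM without cytokine (3.42 ± 0.14, adjusted p = 6.6e-15). For both genes the IL-4 libraries were below all unstimulated ones. Scavenger and apoptotic cell receptors divided, with 8 of 18 tested higher under IL-33 and 4 higher under IL-4. Marco (chromosome 1, 120474538 to 120505024), a scavenger receptor for bacteria and particles, held 263, 608 and 618 counts in the IL-33 libraries, 1 in IL-4 replicate 2, 0 in its other replicates and 0 in the unstimulated ones (ratio to IL-4 of 1541, counting interval 276 to 60900). Stab1, a receptor for oxidised lipids and apoptotic cells, was 4.55-fold higher under IL-33 (2.19 ± 0.14), and Cd36, the fatty acid and oxidised lipid receptor, 2.99-fold higher under IL-4 (-1.58 ± 0.15).

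Acute-phase and iron genes were all called (15 of 15 tested, 11 higher under IL-33 and 4 higher under IL-4). Beside Saa3, Hp stood at 20.6, 26.4 and 36.1 CPM under IL-33 and 0.221, 0.121 and 0.266 CPM under IL-4 and Cp at 31.9, 42.1 and 46.5 CPM under IL-33 and 0.284, 0.508 and 0.244 CPM under IL-4, differences of 7.07 ± 0.52 and 6.84 ± 0.29. Ceruloplasmin oxidises iron for export, and the iron exporter gene Slc40a1 (ferroportin) was 3.44-fold higher under IL-33 than under IL-4 (1.78 ± 0.12). The levels of Slc40a1 were 51.4, 43.2 and 37.7 CPM under IL-33 and 12.5, 15.1 and 10.9 CPM under IL-4, all below the unstimulated 123, 139 and 126 CPM. The transferrin receptor gene Tfrc (chromosome 16, 32608920 to 32632794), which takes iron up, stood at 80.9, 98.7 and 105 CPM under IL-33 and 411, 405 and 407 CPM under IL-4, with 22.6, 24.4 and 25.7 CPM without cytokine (-2.10 ± 0.08, adjusted p = 5.2e-15). Complement genes were higher under IL-33 for 11 of 13 tested and higher under IL-4 for 1, the integrin gene Itgax. C3, the central component, stood at 535, 670.1 and 783 CPM under IL-33 and 151, 214 and 130.4 CPM under IL-4, or 4.01-fold higher under IL-33, and C1qa, a chain of the recognition molecule, was 4.30-fold higher (2.11 ± 0.07).

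Proteases of the matrix were divided, with 8 of 16 tested higher under IL-33 and 5 higher under IL-4. Mmp14 (chromosome 14, 54431612 to 54445364), which activates other matrix proteases at the cell surface, stood at 37.5, 55.4 and 89.4 CPM under IL-33 and 0.537, 0.460 and 0.599 CPM under IL-4 (6.82 ± 0.46, adjusted p = 4.1e-11), with replicate 3 the highest and the IL-33 libraries spread more than 2-fold. The collagenase gene Mmp8 was 11.7-fold higher under IL-33 (3.54 ± 0.15). The macrophage elastase gene Mmp12 stood at 1520.1, 1478 and 1933 CPM under IL-33 and 4334, 5655 and 4009.7 CPM under IL-4, high in both groups against 228, 455 and 309 CPM without cytokine, and was higher under IL-4 (-1.51 ± 0.20). Of 15 growth factor and receptor genes tested, 5 were higher under IL-33 and 6 higher under IL-4. Flt1 (chromosome 5, 147561604 to 147726011), the VEGF receptor 1 of macrophages, stood at 14.96, 12.7 and 11.3 CPM under IL-33 and 263, 305 and 292 CPM under IL-4 (-4.46 ± 0.17, adjusted p = 3.3e-15). The EGF-family ligand gene Hbegf was also higher under IL-4 (-2.44 ± 0.26), and the fibroblast mitogen gene Pdgfc was 6.68-fold higher under IL-33 (2.74 ± 0.15). In the prostaglandin and leukotriene list, 10 of 18 tested were higher under IL-33 and 4 higher under IL-4. The inducible cyclooxygenase gene Ptgs2 stood at 7.90, 6.98 and 7.85 CPM under IL-33 and 0.443, 0.387 and 0.377 CPM under IL-4 (4.23 ± 0.44), its partner synthase gene Ptges was 4.67-fold higher (2.22 ± 0.38) and the receptor gene Ptger4 4.58-fold (2.20 ± 0.12), each toward IL-33.

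Antigen presentation by MHC class II was higher under IL-4, with 8 of 11 genes called in that direction by edgeR and 0 in the other (median -0.69). At an unadjusted p under 0.05, 2 members (H2-DMb2 and H2-Oa) were higher under IL-33, and DESeq2 called 0. H2-DMb2, a chain of the peptide exchange factor H2-DM, differed by 0.50 ± 0.22 and was called toward IL-33 by limma-voom (adjusted p = 0.028), on the 6 libraries compared (0.046) and without IL-4 replicate 1 (0.047). Ciita, the master activator of these genes, stood at 53.3, 74.4 and 74.9 CPM under IL-33 and 137, 145 and 145 CPM under IL-4 (-1.07 ± 0.10), and the chain genes H2-Ab1 and H2-Aa differed by -0.79 ± 0.11 and -0.91 ± 0.11. The 8 differences ran from -0.38 (Ctss, a protease that trims the invariant chain) to that of Ciita. Itgax, which encodes CD11c, stood at 114, 137 and 198 CPM under IL-33 and 823, 1228 and 913 CPM under IL-4, with 41.3, 89.2 and 60.2 CPM without cytokine (-2.73 ± 0.26, adjusted p = 1e-08). Markers of dendritic cells did not share 1 direction: of 10 tested, 3 were called higher under IL-33 and 2 higher under IL-4 (median 0.63). Their sum was 831 to 1237 CPM under IL-4, 130 to 211 CPM under IL-33 and 49.4 to 96.9 CPM without cytokine. Almost all of this sum was Itgax. Flt3, Xcr1 and Clec9a, which define the dendritic cell lineage, stood at no more than 1.49 CPM on average. The part of such cells in the MHC class II levels was not tested. Among costimulatory ligands 7 of 11 tested were higher under IL-33 and 2 higher under IL-4, with Icosl (2.37 ± 0.13) and Cd86 (1.81 ± 0.11) leading on the IL-33 side.

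Genes of cell fusion and osteoclasts were called in all 14 cases tested, 10 higher under IL-4 and 4 higher under IL-33 (median -1.37, 16 on the list). Ocstamp (chromosome 2, 165393760 to 165400405) and Dcstamp, membrane proteins needed for macrophages to fuse into giant cells, stood at 5.82, 2.53 and 5.49 CPM under IL-33 and 214, 254 and 180.1 CPM under IL-4 and at 26.3, 27.5 and 35.0 CPM under IL-33 and 139, 189 and 122 CPM under IL-4, respectively. The differences were -5.56 ± 0.25 and -2.34 ± 0.28, with no overlap in either gene. The proton pump subunit gene Atp6v0d2 was 7.59-fold higher under IL-4 (-2.92 ± 0.10), the integrin gene Itgb3 6.95-fold (-2.80 ± 0.15), and the E-cadherin gene Cdh1 9.23-fold (-3.21 ± 0.21). The 4 on the IL-33 side (Nfatc1, Tnfrsf11a, Cd47 and Sirpa) differed by 0.31 to 0.49 on the log2 scale.

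Interferon-stimulated genes encode antiviral effectors and their regulators. All 28 were tested and all were called, 27 higher under IL-33 and 1 higher under IL-4 (median 1.48), and in all 28 the IL-33 and IL-4 libraries did not overlap, against 39.9% of all genes called and 49.0% without overlap. Ifit1 (chromosome 19, 34640871 to 34650009), a binder of foreign RNA, stood at 58.8, 54.3 and 45.4 CPM under IL-33 and 9.58, 6.31 and 10.8 CPM under IL-4, and at 68.1, 47.2 and 51.4 CPM without cytokine. The unstimulated libraries overlapped those with IL-33 and lay above all with IL-4, and the difference was 2.57 ± 0.32 (adjusted p = 6.3e-07). Isg15, a ubiquitin-like modifier, stood at 56.3, 53.1 and 38.7 CPM under IL-33 and 16.5, 9.94 and 15.8 CPM under IL-4, with 50.4, 33.8 and 36.4 CPM without cytokine (1.81 ± 0.25). The regulator gene Irf7 stood at 173, 130.5 and 95.7 CPM under IL-33 and 42.2, 22.8 and 34.2 CPM under IL-4 and 240.0, 146 and 159.6 CPM without cytokine (2.01 ± 0.36), and the members higher under IL-33 ran from 0.54 (Gbp2) to 2.61 (Ifit3b) on the log2 scale. The exception was Usp18 (-0.85 ± 0.30, adjusted p = 0.026), the protease that removes the ISG15 modifier and blocks the interferon receptor. Its call was lost without IL-33 replicate 2 (adjusted p = 0.11) or 3 (0.13) and without IL-4 replicate 1 (0.082) or 3 (0.069). Counts of Oas1a, Ifit3 and Ifit3b are uncertain because at least 20% of their exon sequence is shared with another gene.

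The upstream regions of Ifit1 and Isg15 are shown because the genes of this list were called together and both regions hold the letters of an interferon response element, GAAA and GAAA with 2 free bases between them. They were taken from RefSeq in the same way (GRCm38.p6), 5′ to 3′ on the gene's strand, with matches on either strand in capitals. Ifit1 is chr19:34640639-34640870 on the plus strand with 2 matches, beginning 104 and 85 bases before the RefSeq start. Isg15 is chr4:156200819-156201068 on the minus strand with 3 overlapping matches, beginning 78, 72 and 66 bases before it.
Ifit1: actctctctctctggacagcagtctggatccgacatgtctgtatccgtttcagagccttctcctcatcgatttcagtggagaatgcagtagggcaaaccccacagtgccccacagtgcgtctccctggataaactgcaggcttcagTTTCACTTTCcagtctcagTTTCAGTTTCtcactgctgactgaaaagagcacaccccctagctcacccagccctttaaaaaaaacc
Isg15: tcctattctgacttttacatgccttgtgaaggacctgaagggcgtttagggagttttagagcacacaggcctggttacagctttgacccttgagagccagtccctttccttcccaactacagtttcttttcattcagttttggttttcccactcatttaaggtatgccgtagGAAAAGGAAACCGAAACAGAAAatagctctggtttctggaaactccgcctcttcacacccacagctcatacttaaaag
Of 21 members of the list with a promoter in the RefSeq table, 13 (61.9%) held this motif, against 3.99% of all 27025 genes in that table.

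**Figure D4:**
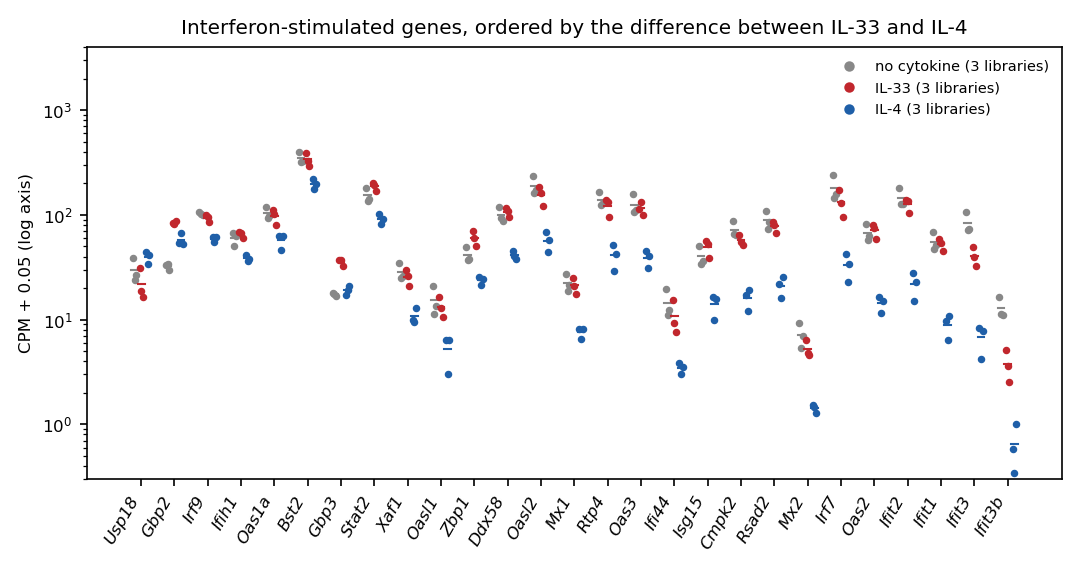
CPM (plus 0.05, log axis) of 27 interferon-stimulated genes in the 3 unstimulated (grey), 3 IL-33 (red) and 3 IL-4 (blue) libraries, ordered by the difference between IL-33 and IL-4; short lines are means. Blue points lie below the red ones in each gene shown except Usp18, where they lie above.

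The same motif search was made over all promoters of 300 bases (250 before to 50 after the start, both strands), which matched 9917 of the 14469 symbols tested. The interferon response letters (GAAA, 2 free bases, GAAA) were present for 10.7% of genes at least 2-fold higher under IL-33, 3.09% of those at least 2-fold higher under IL-4 and 4.07% of all tested genes. The NF-kB letters (GGG, 3 free bases, TTCC) were present for 10.2%, 4.75% and 7.51% in the same order. The STAT6 spacing (TTC, 4 free bases, GAA) was present for 6.91%, 9.26% and 6.66%, and the STAT spacing with 3 free bases for 12.9%, 7.13% and 8.39%. These shares describe letters in a short window and were not tested.

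In energy metabolism the differences were small. Of 71 nuclear-encoded genes of the respiratory chain and ATP synthase, 39 were called higher under IL-4 and 1 higher under IL-33 (Ndufc2, a call lost without IL-33 replicate 2 or IL-4 replicate 2 or 3), and the largest difference was 1.52-fold. Atp5b, the catalytic beta subunit of ATP synthase, stood at 718, 650.0 and 673 CPM under IL-33 and 992, 945 and 959.6 CPM under IL-4 (-0.51 ± 0.05, adjusted p = 1.8e-08), and Cyc1, the cytochrome subunit of complex III, differed by -0.58 ± 0.06. In complex I the share called in either direction was 44.4%, against 39.9% of all genes. Without IL-4 replicate 3, complex I fell from 15 to 9 genes called higher under IL-4, and ATP synthase from 12 to 7. Of 12 mitochondrially encoded mRNAs tested, 7 were called higher under IL-4, but the count was 1 without IL-33 replicate 2, 4 without IL-33 replicate 3 and 2 without IL-4 replicate 1 or replicate 2, and only 2 of the 12 showed no overlap. Counts of 7 of the 12 (mt-Co3, mt-Co2, mt-Atp6, mt-Nd4l, mt-Nd3, mt-Nd4 and mt-Co1) are uncertain, because 30.8 to 99.9% of their 100-base stretches also occur in another gene. The share of counts from the mitochondrial genome was 0.113 to 0.174% under IL-33 and 0.136 to 0.218% under IL-4, ranges that overlap, and its part in this count was not tested. In the TCA cycle, 15 of 24 tested were higher under IL-4 and 4 higher under IL-33, with Idh3a (-0.72 ± 0.10), a subunit of isocitrate dehydrogenase, the largest. Of 19 glycolysis genes tested, 5 were higher under IL-33 and 4 higher under IL-4, a called share of 47.4% against 39.9% of all genes. The counts were 3 and 4 without IL-33 replicate 3, IL-4 replicate 1 or IL-4 replicate 3, but 8 and 5 on the 6 libraries compared and 8 and 6 with no filter on low counts. Within it the phosphofructokinase isoform genes split, Pfkp toward IL-4 (-0.91 ± 0.07) and Pfkl toward IL-33 (0.53 ± 0.13). Counts of the glycolysis genes Pgk1, Pgam1, Gapdh and Eno1 are also uncertain, with 20.4 to 51.7% of their 100-base stretches shared. Gapdh stood at 6.19, 52.1 and 7.77 CPM under IL-33 and was not called. The same limit holds for the respiratory genes Atp5g2 (34.7%), Atp5o (27.9%), Ndufb6, Ndufa13 and Cycs (22.6 to 24.0%).

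Itaconate is made from a TCA cycle intermediate by the enzyme ACOD1, listed here under its older symbol Irg1. Irg1 (chromosome 14, 103046977 to 103056573) stood at 76.5, 66.9 and 75.8 CPM under IL-33 and 6.64, 5.71 and 3.44 CPM under IL-4, with 4.40, 2.98 and 2.53 CPM without cytokine, a difference of 3.82 ± 0.27 (adjusted p = 1e-10). Slc13a3, a carrier that takes up dicarboxylates including itaconate, stood at 48.9, 83.0 and 81.9 CPM under IL-33 and 5.59, 4.74 and 5.68 CPM under IL-4 (3.74 ± 0.24). Of 16 genes of itaconate synthesis and the Nrf2 antioxidant response, 8 were called higher under IL-33 and 1 higher under IL-4, and Gclm, which serves glutathione synthesis, was 2.07-fold higher under IL-33 (1.05 ± 0.08). Of 23 genes of fatty acid uptake, storage and oxidation, 14 were higher under IL-4 and 3 higher under IL-33. The fatty acid binding protein gene Fabp4 was 3.50-fold higher under IL-4 (-1.81 ± 0.09), and Angptl4, an inhibitor of lipoprotein lipase, stood at 1.00, 0.590 and 1.07 CPM under IL-33 and 7.62, 6.51 and 6.88 CPM under IL-4 with 6.89, 8.48 and 7.84 CPM without cytokine (-2.98 ± 0.20). Its unstimulated and IL-4 libraries overlapped, and the IL-33 libraries lay below both. Cholesterol synthesis had 5 of 22 tested higher under IL-33 and 2 higher under IL-4, a called share of 31.8% against 39.9% of all genes. In the list of the integrated stress response and serine synthesis, 3 of 16 tested were higher under IL-33 and 8 higher under IL-4. Psat1, an aminotransferase of serine synthesis, stood at 34.9, 29.0 and 29.0 CPM under IL-33 and 74.1, 84.0 and 70.5 CPM under IL-4 (-1.30 ± 0.14), and Asns, asparagine synthetase, differed by -0.81 ± 0.19.

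DNA replication genes were higher under IL-4 in 21 of 23 cases tested, with 0 higher under IL-33 (median -0.58). Pcna, the sliding clamp of DNA polymerases, stood at 235, 209 and 204 CPM under IL-33 and 466, 439.7 and 483 CPM under IL-4, and at 205, 255 and 218 CPM without cytokine. The unstimulated libraries overlapped those with IL-33, and the difference was -1.10 ± 0.11 (adjusted p = 1.5e-08). The helicase gene Mcm5 stood at 34.5, 27.7 and 25.2 CPM under IL-33 and 59.8, 56.2 and 55.4 CPM under IL-4 (-0.97 ± 0.13), and the cyclin gene Ccne2 differed by -1.06 ± 0.25. Mitosis genes had 11 of 20 called higher under IL-4 and 0 higher under IL-33 (median -0.29), but 3 without IL-33 replicate 2 or 3 or IL-4 replicate 1, and 6 without IL-4 replicate 3. The proliferation marker Mki67 was not called (-0.10 ± 0.12, adjusted p = 0.58).

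**Figure D5:**
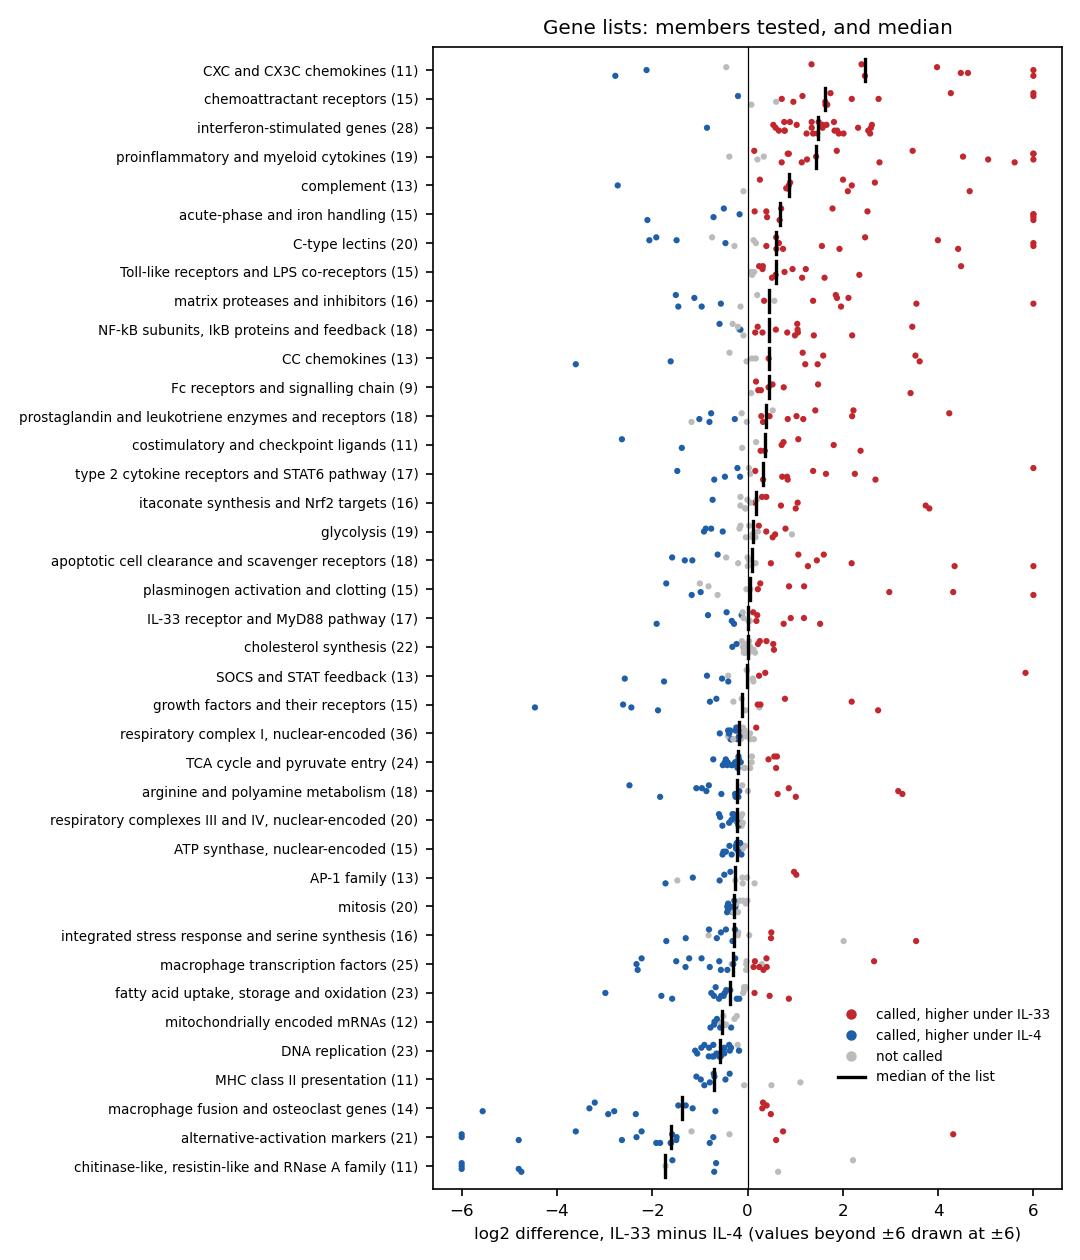
Log2 difference (IL-33 minus IL-4) of each tested member of 39 gene lists, with the number tested in brackets; red and blue points were called higher under IL-33 and under IL-4, grey points were not called, and the black bar is the list's median (values beyond ±6 are drawn at ±6). Medians run from 2.46 for CXC and CX3C chemokines at the top to -1.72 for the chitinase-like, resistin-like and RNase A family at the bottom.

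Markers of other cells that marrow cultures could hold were read across the same libraries. The sum of 14 neutrophil markers was 472 to 681 CPM under IL-33, 239 to 286 CPM under IL-4 and 130 to 154 CPM without cytokine, and 10 of 13 tested were called higher under IL-33 and 0 higher under IL-4. Much of the sum under IL-33 was Mmp8, Mmp9 and Csf3r, while the granule genes Elane, Prtn3 and Mpo stood at 2.002, 2.68 and 2.67 CPM on average, and Ly6g held 2 counts under IL-33 and 0 under IL-4. The sum of 10 monocyte markers was 786 to 1267 CPM under IL-33, 726 to 924 CPM under IL-4 and 281 to 335 CPM without cytokine. Of 9 tested, 7 were called higher under IL-33 and 2 higher under IL-4, each by at least 2-fold (median 2.15). F13a1, Vcan (4.24 ± 0.17) and Hp were among those on the IL-33 side, and Chil3 and Fn1 were on the IL-4 side. The part of such cells in the acute-phase and lectin receptor levels was not tested. Mast cell and basophil markers summed to 3.41 to 6.48 CPM under IL-33, 2.27 to 3.26 CPM under IL-4 and 7.78 to 11.5 CPM without cytokine. Of 6 tested, 3 were called higher under IL-33, each by at least 2-fold, and 0 higher under IL-4 (median 1.30). Mcpt4 and Tpsb2 were at 0 in both cytokine groups, Kit was not called (0.11 ± 0.35), and Ms4a2 held 38 against 5 counts. Mast cells and basophils are known sources of IL-13, and their part in the Il13 counts was not tested. Lymphocyte markers summed to 159 to 179 CPM under IL-33 and 337 to 349 CPM under IL-4, and Gata3, the factor of type 2 lymphocytes, was at 0.190 ± 0.0527 and 0.192 ± 0.0439 CPM. The lymphocyte sum was mostly Il7r (-1.26 ± 0.06), and Cd3e held 4 and 7 counts. Eosinophil markers summed to 24.6 to 27.8 CPM under IL-33 and 30.7 to 41.3 CPM under IL-4, and stromal markers to 3.49 to 5.21 and 6.53 to 9.26 CPM. Of the 9 stromal markers, 2 were at 0 under IL-33 and 6 under IL-4. Of the 6 tested, 1 was called higher under IL-33 and 2 higher under IL-4. The collagen gene Col3a1 held 48 counts under IL-33, 47 of them in replicate 2, and 0 under IL-4. Erythroid and megakaryocyte markers summed to 165 to 218 CPM under IL-33 and 13.5 to 15.7 CPM under IL-4, nearly all of it Pf4.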

How the data were processed

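RNA from whole cultures was sequenced. The authors deposited whole-number read counts per gene for 47069 genes in 21 libraries; GRCm38 (mm10), the aligner HISAT2 (2.0.5), the counter HTSeq (0.6.1) and DESeq2 (1.22.2) are named in the submitters' processing notes. The annotation and the strand setting are not given in the sources used here. Positions came from GENCODE M21 (GRCm38) and symbols from the deposited table.

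Genes were filtered with filterByExpr over the 7 groups, leaving 14473. All 21 libraries (32.6 to 48.7 M counts) were fitted with edgeR 4.0.16 in R 4.3.3 (TMM scaling, 1 term per group, quasi-likelihood test, 14 residual degrees of freedom), with Benjamini-Hochberg adjustment over all genes and calls at 0.05. The standard error is the size of the log2 difference divided by the square root of F. Adjusted p-values are from this fit unless another tool is named. CPM used TMM library sizes. Genes with few counts are given as ratios of summed counts with exact intervals at 95%, or against a floor of 3 counts per library; both cover counting error only. The pipeline was tested on simulated counts.

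The comparison, its 48 gene lists and its tests were chosen with earlier results of these data known. Named genes were the 12 largest called differences in each direction (mean log2 CPM of at least 2, no overlap between groups), up to 4 called members with the largest differences in each direction per list, members the text needs, and Il1rl1, Il4ra, Stat6, Arg1, Arg2, Retnla, Chil3, Cx3cr1, Irg1 and Il1b; not each is printed. Levels without cytokine are given with no test. Alternatives were other scalings and filters, DESeq2 1.42.0, limma-voom (limma 3.58.1), fewer libraries, a replicate block and leaving out each library. Of 710 genes checked, 38 shared at least 20% of their 100-base stretches with another gene. No library pair differed by so little as to be a duplicate. Some list members are counted but not reported here by name.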

Additional observations from a re-analysis of the deposited data

How the results depend on the processing

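The counts of called genes stayed within 1.5 times of 2772 (higher under IL-33) and 3000 (higher under IL-4) in all 15 alternatives, at 2577 to 2926 and 2373 to 3145, and the counts of at least 2-fold stayed at 730 to 812 and 571 to 649. Leaving out each of the 6 libraries in turn gave 2577 to 2679, 2373 to 2917, 730 to 777 and 571 to 647 in the same order. The share of calls higher under IL-33 ran from 47.3 to 52.1%, and 0 called genes reversed. Over 710 genes read under these alternatives, 10637 comparisons gave 10128 with the same call, 330 that lost it, 179 that gained it and 0 that reversed. With the replicate number as a block the counts were 2844 and 3145, and 770 and 629 at 2-fold. With this block 11 NF-kB genes were called higher under IL-33 and 4 higher under IL-4, and Il1rn (0.37, edgeR adjusted p = 0.024), H2-DMb2 (0.51, 0.045) and Retnlg (2.25, 0.029) were called. Same-numbered libraries of the compared groups correlated at -0.022 to 0.055, and IL-33 replicate 3 correlated best with IL-4 replicate 2 (0.040), so the numbers were not taken to pair libraries. With 3 libraries a group, genes of few counts under 1 cytokine have folds set by 1 library, as given beside Cxcl1, Fpr2, Marco and Serpinb2. Apart from H2-DMb2 and Retnlg, each gene list with 0 genes called by edgeR in a direction also had 0 called there in every alternative, DESeq2 and limma-voom included, and, H2-Oa aside, 0 at an unadjusted p under 0.05.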
